A study of Rattus norvegicus with 4 samples.

Results

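Complement is the cascade of plasma and tissue proteins that tags particles for uptake and lyses membranes. The 9 genes named for this account were chosen with the signals of these 4 arrays in view. The complement genes among them are C3, Cfd, C1qb, Clu, Cd55 and Cd59, and the other secreted-protein genes are Kap, Cuzd1 and Lcn2. Probe sets were taken where the array annotation gives 1 gene symbol and it is 1 of these names. This found 8 of the 9 genes on 12 of 8740 probe sets, among 4736 genes in all. No probe set carries the symbol Cd59, and 1 carries Cd59b, a gene that RefSeq lists with the synonym Cd59, so its values are given beside the 8 and not counted with them.

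Mature female rats aged 60 days had their ovaries removed a week earlier. They received 10 µg per kg of estradiol benzoate, a slowly released ester of estradiol, under the skin, or its vehicle. Myometrium, the layer of smooth muscle around the uterine lining, was taken after 6 or 24 h, which made 4 groups, and all 4 lack ovarian hormones except for the dose given. Each group is 1 array of RNA pooled from 6 animals, so no group has replicate error, no difference was tested, and every value below describes these arrays. The strain is not given in the sources used here. Pooling hides the spread between animals, and myometrium separated by hand can carry other uterine layers.

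Signals are MAS5 intensities at a common trimmed mean of 500, and array medians lay between 144 and 169. A floor was set on each array at its 40th percentile, between 89.5 and 108 signal units, and a signal below it is called at the floor. A gene counts as different when its brightest probe set differs 2-fold with the brighter array above its floor. Where the dimmer array is at the floor, the fold is written as at least N-fold. Igf1, Pgr, S100g and Hsd11b2, textbook estrogen targets of the rat uterus, go against the labels at 6 h. Igf1 read 7872 on the array labelled control and 704 on the array labelled estradiol at 6 h, against 665 in the control and 5182 with estradiol at 24 h. All 4 of these genes were at least 2-fold lower with the estradiol label at 6 h and at least 2-fold higher with estradiol at 24 h. Directions at 6 h are therefore given only for the arrays as labelled. Both 24 h arrays were scanned on 1 day and both 6 h arrays on another, so a time difference cannot be told apart from a scan-day difference. The wash record of the 24 h control array ends in a communication error. Smooth muscle markers were present: all 10 on the array were above the floor on all 4 arrays, and 0 of them differed 2-fold at 24 h.

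C3 is the central protein of the cascade, where its activation routes meet, and uterine epithelium is known to make it under estrogen. C1qb is a chain of C1q, the recognition molecule of the classical route, made mainly by macrophages. Cfd is factor D or adipsin, the protease of the alternative route, abundant in fat. Cd55 and Cd59 are membrane proteins that shield host cells, by breaking up C3 convertases and by blocking the membrane attack complex. Clu, or clusterin, is a secreted chaperone that also binds terminal complement. Kap is an androgen-regulated protein of the kidney tubule, Cuzd1 a protein with CUB and zona pellucida domains known from the estrogen-treated uterus, and Lcn2 a lipocalin that binds bacterial siderophores.

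The sequence just before 4 of these genes is shown because 3 of them, Kap, Cuzd1 and C3, were above the floor on the 24 h estradiol array alone, while the fourth, Cfd, was at the floor on that array alone. Lcn2 was also at the floor on that array alone, nearer to it, and its window is not printed. RefSeq promoter sequence of build GRCr8 was found for 7 of the 8 genes, each covering 250 bases before to 50 after the annotated gene start. Capitals mark GGTCA or its reverse complement TGACC, the core of the estrogen response element.
Kap, chr4:168408983-168409282, minus strand: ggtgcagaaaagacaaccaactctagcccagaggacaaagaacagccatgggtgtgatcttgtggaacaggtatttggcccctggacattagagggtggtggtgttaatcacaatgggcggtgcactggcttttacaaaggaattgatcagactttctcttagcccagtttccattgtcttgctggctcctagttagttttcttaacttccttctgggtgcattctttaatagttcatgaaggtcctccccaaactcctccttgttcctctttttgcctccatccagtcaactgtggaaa
Cuzd1, chr1:195532684-195532983, minus strand: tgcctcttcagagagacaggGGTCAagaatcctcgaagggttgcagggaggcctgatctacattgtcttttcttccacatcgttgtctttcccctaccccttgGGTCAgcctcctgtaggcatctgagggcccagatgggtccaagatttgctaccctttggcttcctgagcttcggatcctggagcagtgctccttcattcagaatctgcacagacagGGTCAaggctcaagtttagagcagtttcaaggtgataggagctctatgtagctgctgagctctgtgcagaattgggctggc
C3, chr9:2201290-2201589, minus strand: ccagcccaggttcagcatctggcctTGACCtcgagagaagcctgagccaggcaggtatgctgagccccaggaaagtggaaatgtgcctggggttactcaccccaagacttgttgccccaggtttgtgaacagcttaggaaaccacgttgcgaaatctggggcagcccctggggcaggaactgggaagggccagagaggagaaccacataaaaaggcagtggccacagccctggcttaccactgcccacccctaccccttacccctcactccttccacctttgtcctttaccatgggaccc
Cfd, chr7:10465447-10465746, minus strand: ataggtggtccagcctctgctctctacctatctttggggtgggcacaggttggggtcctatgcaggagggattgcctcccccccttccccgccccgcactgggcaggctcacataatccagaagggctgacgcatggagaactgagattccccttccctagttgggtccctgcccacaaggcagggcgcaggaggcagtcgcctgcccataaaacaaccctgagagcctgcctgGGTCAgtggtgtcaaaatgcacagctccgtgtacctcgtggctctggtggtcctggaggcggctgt

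The full element GGTCANNNTGACC, which reads the same on both strands, was in 0 of the 7 windows and in 9 of 33469 rat promoter windows of the same length. The core GGTCA, searched on both strands and contained in the full element, was in 5 of the 7 windows and in 40.5% of all windows. Cuzd1 held 3 cores, beginning at positions -230, -147 and -31 from the gene start, C3 held 1 at -225 and Kap held 0. C1qb also held 3 cores, at -115, -106 and -13, and 2.25% of all windows hold 3 or more. Cd55 held 1 at -224, Cfd 1 at -16 and Lcn2 0. The AP-1 motif TGANTCA was in 0 of the 7 windows and in 7.33% of all windows, and TATAAA in 0 of the 7 and in 14.2% of all. The GC box GGGCGG was in 4 of the 7 windows, those of Cfd, C1qb, Cd55 and Kap, and in 33.1% of all windows, each searched on both strands. These matches describe letters in a window and say nothing of binding.

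At 24 h, Kap, Cuzd1, C3 and Cd55 were at least 2-fold higher with estradiol, and Cfd, Lcn2 and Clu at least 2-fold lower. Those are 4 higher and 3 lower of 8 genes, where 8.68% of the 3619 genes above the floor on at least 1 array were higher and 8.04% lower. The 8 genes were chosen on these values, so nothing is read from their share. All 8 were above the floor on at least 1 array, and Kap, Cuzd1 and C3 passed only through the 24 h estradiol array. The median log2 difference of the 8 was 0.30, midway between Cd55 at 1.52 and C1qb at -0.91, against -0.17 over the 3619 genes. That -0.17 is the gap between the floors of both 24 h arrays, the value of any gene at the floor on both. In pooled tissue, fewer cells of a type and less RNA per cell cannot be told apart.

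Kap had a signal of 1832 with estradiol at 24 h, 25.5 in the 24 h control, 10.3 on the array labelled control at 6 h and 12.1 on the array labelled estradiol at 6 h. It was high on 1 array and at the floor on the other 3. Its difference at 24 h was at least 18.2-fold, and it stood at least 16.9-fold above the floor of every other array. Kidney tubule markers did not stand high with it. Of 10 such genes on the array 4 were above the floor with estradiol at 24 h. The summed signal of all 10, those at the floor included, was 782 there against 1331 in the 24 h control. At 6 h the sum was 1542 with the control label and 1142 with the estradiol label. Umod, which defines the thick ascending limb, read 177 on the 24 h estradiol array and 249 on the 24 h control array.

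Cuzd1 has 2 probe sets of the same source sequence. The brighter read 1306 with estradiol at 24 h, 62.7 in the 24 h control, 23.9 with the control label at 6 h and 76.7 with the estradiol label at 6 h. The dimmer read 337, 23.8, 16.6 and 17.8 in the same order. Both were above the floor on the 24 h estradiol array alone. Their bounds differed, at least 13.0-fold for the brighter and at least 3.35-fold for the dimmer, because a dimmer signal lies closer to the floor.

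C3 also has 2 probe sets, named for different source sequences. The brighter read 1118 with estradiol at 24 h, 10.8 in the 24 h control, 48.7 with the control label at 6 h and 30.4 with the estradiol label at 6 h. The other read 919, 37.0, 86.9 and 52.5 in the same order. Both showed the same pattern as Kap and Cuzd1, high on 1 array and at the floor on 3. The differences at 24 h were at least 11.1-fold and at least 9.11-fold.

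**Figure D1:**
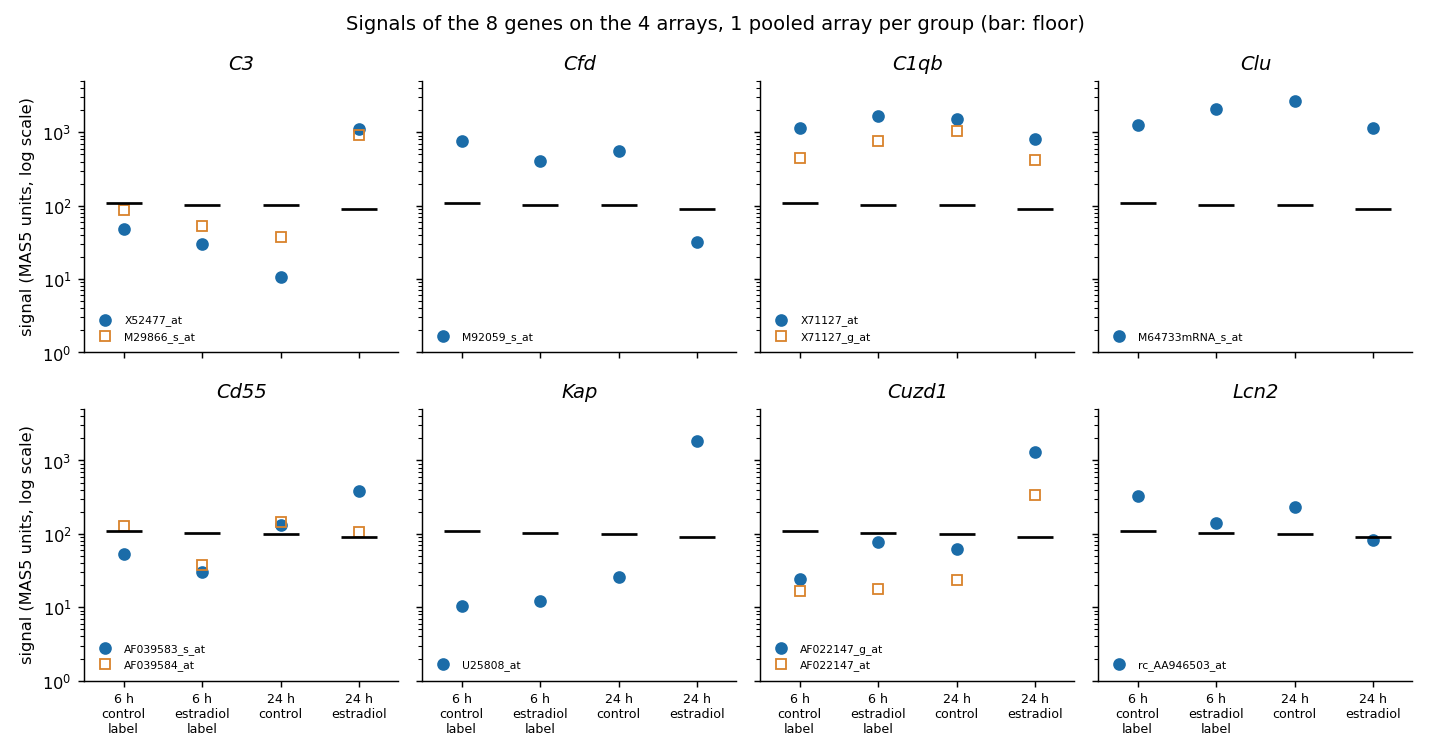
Signal of each probe set of the 8 genes (y axis, MAS5 units, log scale) on the 4 arrays (x axis), with 1 point per array and a bar at each array's floor. Filled points are the brightest probe set and open squares the second one; Kap, Cuzd1 and C3 lie above the bar on the 24 h estradiol array only.

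Of the 3619 genes 10, 0.276%, were above the floor on the 24 h estradiol array alone and 2-fold above each other array. The same count was 3 for the 24 h control, 2 for the array labelled control at 6 h and 1 for the array labelled estradiol at 6 h. C3, Kap and Cuzd1 were 3 of the 10, but they were chosen with these signals in view, so nothing is read from their place there. On the array labelled control at 6 h, where Igf1, Pgr, S100g and Hsd11b2 were high, C3, Kap and Cuzd1 were at the floor on all 5 of their probe sets. They were also at the floor on the array labelled estradiol at 6 h, so no fold is given at that time.

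**Figure D2:**
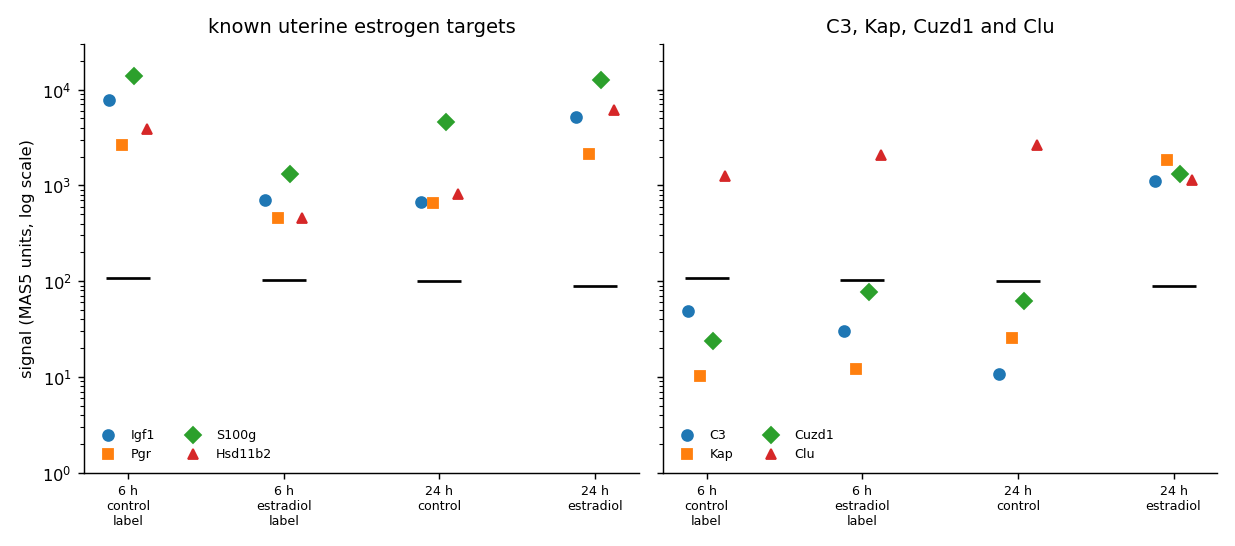
Signal (y axis, MAS5 units, log scale) of Igf1, Pgr, S100g and Hsd11b2 (left) and of C3, Kap, Cuzd1 and Clu (right) on the 4 arrays (x axis), 1 point per gene and array, with a bar at each floor. Igf1 reads 7872 on the array labelled control at 6 h, where C3 reads 48.7 and is at the floor.

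Epithelial markers were also higher with estradiol at 24 h. Of the 10 epithelial markers on the array, 6 were at least 2-fold higher with estradiol at 24 h and 0 lower, beside 8.68% and 8.04% of all genes. The summed signal of all 10 was 7935 on the 24 h estradiol array and 3452 on the 24 h control array. At 6 h it was 5777 with the control label and 3799 with the estradiol label. Tjp1 alone gave 1509, 1636, 1548 and 2455 of these sums in the same order, so they are not a plain measure of epithelium. Krt8, a keratin of simple epithelium, read 996 on the 24 h estradiol array and 206 on the 24 h control array, and 404 with the control label at 6 h. Krt18, its partner, read 538, 127 and 520 on the same 3 arrays, so it was as bright on the array labelled control at 6 h, where C3 read 48.7, as with estradiol at 24 h. Epcam, an epithelial adhesion molecule, read 355 with estradiol at 24 h and 127, above the floor, in the 24 h control. It was at the floor on both 6 h arrays. The part of these cells in the result was not tested.

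Cd55 has 2 probe sets that disagree. The brighter read 378 with estradiol at 24 h, 132 in the 24 h control, 53.9 with the control label at 6 h and 30.0 with the estradiol label at 6 h, and it was 2.86-fold higher at 24 h. It was 2-fold higher on the 24 h estradiol array than on each of the other 3 arrays, as were Kap, Cuzd1 and C3. That makes 4 of the 8 genes, beside 1.58% of all genes, but the 8 were chosen on these values. The dimmer read 105, 145, 130 and 37.9 in the same order, and at 24 h it was 1.38-fold lower. The higher call of Cd55 therefore rests on 1 of its 2 probe sets, both of which lie near the floor on most arrays.

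Cd59b, the other membrane inhibitor, had a signal of 1836 with estradiol at 24 h, 4138 in the 24 h control, 2714 with the control label at 6 h and 3283 with the estradiol label at 6 h. It was above the floor on all 4 arrays and 2.25-fold lower with estradiol at 24 h. At 6 h it was 1.21-fold higher with the estradiol label, under the 2-fold rule.

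Cfd had a signal of 32.1 with estradiol at 24 h, 563 in the 24 h control, 750 with the control label at 6 h and 410 with the estradiol label at 6 h. It was at the floor on the 24 h estradiol array and well above it on the other 3. The difference at 24 h was at least 6.28-fold lower with estradiol. At 6 h it was 1.83-fold lower with the estradiol label, under the 2-fold rule. Cfd was the 1 gene of the 8 that was 2-fold lower on the 24 h estradiol array than on each other array, where 1.55% of genes were. It too was chosen with these values in view. In the order of the 4 signals, only the lowest stood apart by 2-fold or more from its neighbour.

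Adipocyte markers were mixed beside Cfd. Of 10 on the array 6 were above the floor on at least 1 array, and 1 was 2-fold lower and 0 higher at 24 h, beside 8.04% and 8.68% of all genes. The lower one was Lpl, the lipoprotein lipase, which read 456 on the 24 h estradiol array and 2775 on the 24 h control array, and 565 and 1222 with the control and the estradiol label at 6 h. Summed signals of all 10 ran from 6114 with estradiol at 24 h to 7716 in the 24 h control. They were 7393 and 6430 on the arrays labelled control and estradiol at 6 h. At 24 h Lep gave 1901 of the sum with estradiol and 2411 in the control, and Acly 2906 and 1653. Plin1, which coats fat droplets, was at the floor on all 4 arrays, as were Pck1, Pparg and Cd36. Fabp4, the fatty acid carrier of fat cells, was above it only with the control label at 6 h, at 178.

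Clu had a signal of 1136 with estradiol at 24 h, 2646 in the 24 h control, 1260 with the control label at 6 h and 2098 with the estradiol label at 6 h. The 2 lower values lie within 1.11-fold of each other and are on the arrays where Igf1, Pgr, S100g and Hsd11b2 were high. The 2 higher values differ by 1.26-fold. At 24 h Clu was 2.33-fold lower with estradiol, and at 6 h 1.67-fold higher with the estradiol label. C1qb was likewise lowest on those same arrays. Its brighter probe set read 799 with estradiol at 24 h, 1503 in the 24 h control, 1132 with the control label at 6 h and 1645 with the estradiol label at 6 h. That was 1.88-fold lower at 24 h, under the rule, while the dimmer probe set, at 422, 1028, 452 and 765 in the same order, was 2.44-fold lower.

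Macrophage markers were in part lower where C1qb was. Of 12 above the floor on at least 1 array 5 were 2-fold lower with estradiol at 24 h, and 2 were higher, beside 8.04% and 8.68% of all genes. The lower ones were RT1-Da, RT1-Ba, RT1-Bb, Cd74 and Cd53. The higher ones were Lyz2 by 3.25-fold and Fcgr2b by 2.41-fold. The summed signal of all 13 macrophage markers on the array, Itgam at the floor included, was 7825 on the 24 h estradiol array and 11246 on the 24 h control array. At 6 h it was 11717 with the control label and 9329 with the estradiol label. Lyz2 alone gave 3236 and 997 of the sums on the 24 h estradiol and control arrays, so they are not a plain measure of macrophages. The array labelled estradiol at 6 h was high in C1qb and not in the summed markers, but single markers differed. Lyz2 read 3280 with the control label and 2208 with the estradiol label at 6 h. Ctss read 811 on the 24 h estradiol array, 1469 on the 24 h control array, and 1203 and 1596 with the control and the estradiol label at 6 h. Past 2-fold at 6 h, 0 of the 12 were higher and 1 was lower with the estradiol label. C1qc, another C1q chain, read 484 on the 24 h estradiol array and 849 on the 24 h control array, and 787 and 829 with the control and the estradiol label at 6 h. Its difference at 24 h, 1.75-fold lower, was under the rule as for the brighter C1qb probe set. The part of macrophages in the result was not tested.

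Lcn2 had a signal of 82.8 with estradiol at 24 h, 233 in the 24 h control, 331 with the control label at 6 h and 143 with the estradiol label at 6 h. At both times the array labelled estradiol was the dimmer. The difference was at least 2.60-fold lower at 24 h and 2.31-fold lower at 6 h, the latter being the 1 call among the 8 genes at 6 h. Over all 3619 genes 5.08% were lower and 6.47% higher with the estradiol label at 6 h, and 0 of the 8 were higher. C3, Kap, Cuzd1 and the brighter Cd55 probe set were at the floor on both 6 h arrays and could not be called in either direction. Granulocyte markers gave little signal beside Lcn2: 2 of 8 on the array were above the floor on any array, and S100a8 and S100a9, the abundant calcium-binding proteins of neutrophils, were at the floor on all 4.

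**Figure D3:**
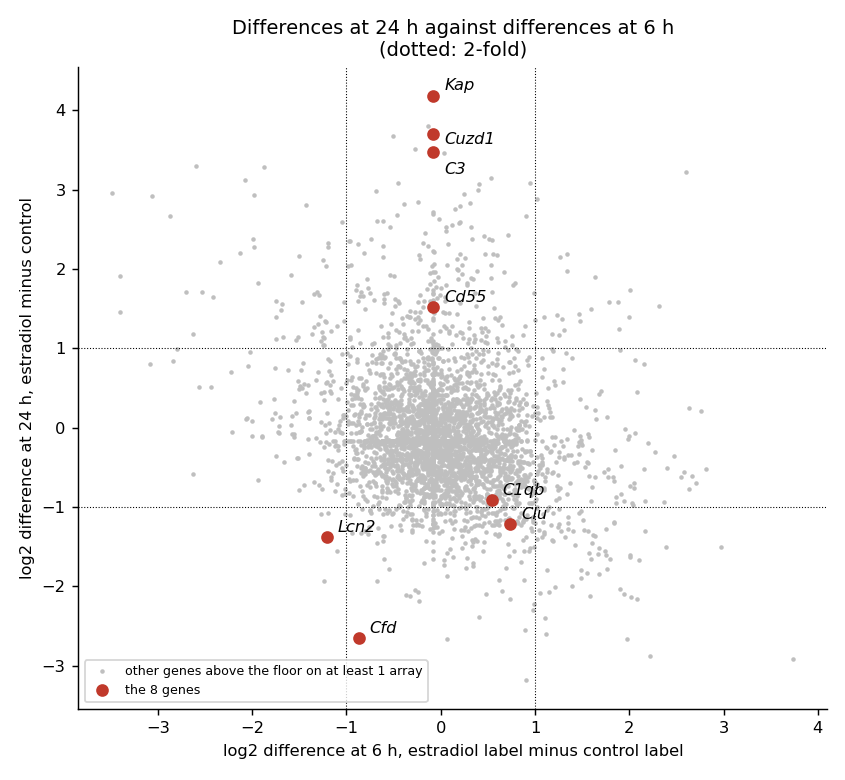
Log2 difference at 24 h, estradiol minus control (y axis), against that at 6 h, estradiol label minus control label (x axis), for the 8 genes and all other genes above the floor on at least 1 array; dotted lines mark 2-fold. Kap (at least 4.18), Cuzd1 (at least 3.70) and C3 (at least 3.47) lie near the top, with the 24 h control and both 6 h arrays at the floor. Cfd, with the 24 h estradiol array at the floor, lies near the bottom at -2.65, also a bound.

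The comparison of the arrays labelled control rests on the 6 h label, which Igf1, Pgr, S100g and Hsd11b2 go against. In the 24 h control Igf1 was 11.8-fold, Hsd11b2 4.76-fold and Pgr 4.08-fold below the array labelled control at 6 h, and S100g read 4619 against 13858. Its calls are therefore not plainly those of 2 untreated groups. Clu was 2.10-fold higher on the 24 h control, and by brightest probe set it was the 1 gene of the 8 past the rule. The dimmer C1qb probe set was 2.28-fold higher on the 24 h control, while the brighter, which is counted, was 1.33-fold higher. The background was 7.63% higher and 9.62% lower, and spike-in transcripts were 1.75-fold brighter on the 24 h control, whose part in the result was not tested. C3, Kap and Cuzd1 were at the floor in both, and Cfd was 1.33-fold and Lcn2 1.42-fold lower at 24 h. This comparison shares its arrays with those at 6 h and 24 h.

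Of 37 listed genes 19 were on the array, 10 were above the floor on at least 1 array, and of these 0 were 2-fold higher and 1 was lower with estradiol at 24 h. Over all genes 8.68% were higher and 8.04% lower, which in 10 genes is near the same. The median log2 difference of the 10 was -0.54, against -0.17 over all genes, which is the value of a gene at the floor on both 24 h arrays. The lower gene was Serping1, the C1 inhibitor, which restrains the first proteases of the classical route. It read 342 with estradiol at 24 h, 1170 in the 24 h control, 1089 with the control label at 6 h and 1310 with the estradiol label at 6 h. That is 3.42-fold lower at 24 h, with the other 3 arrays within 1.20-fold of each other. Among the proteases it restrains, C1r was 1.22-fold higher and C1s 1.47-fold lower at 24 h, both under the rule. Cr1l, the rodent membrane inhibitor Crry, was 1.76-fold lower and Cfp, the convertase stabiliser properdin, 1.25-fold lower, also under the rule. The terminal components C8b and C9, the lectins Mbl1 and Mbl2, the inhibitors C4bpa, C4bpb and Cd46, the receptor C3ar1 and the integrin chain Itgam were at the floor on all 4 arrays. At 6 h 0 of the 10 genes passed the rule in either direction, and their median was 0.00.

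Of 24 other secreted-protein genes above the floor on at least 1 array, 3 were higher and 2 lower with estradiol at 24 h, near the 8.68% and 8.04% of all genes. Mmp7, a protease of uterine epithelium, read 872 on the 24 h estradiol array and 126 on the 24 h control array, and 128 and 148 with the control and the estradiol label at 6 h. Like C3, it stood high on 1 array, 6.92-fold above the 24 h control, but it was above the floor on all 4. Lyz2, the lysozyme of macrophages, was 3.25-fold higher and Igfbp5, a binder of insulin-like growth factors, at least 9.29-fold higher. In the 24 h control both were also below the array labelled control at 6 h, whose label is in doubt, by 3.29-fold and at least 6.21-fold. Igfbp3 and Igfbp6 were 3.09-fold and 2.71-fold lower at 24 h. At 6 h 2 of the 24 were higher with the estradiol label, beside 6.47% of all genes, Igfbp5 by 6.05-fold and Igfbp3 by 4.01-fold, and 0 lower.

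**Figure D4:**
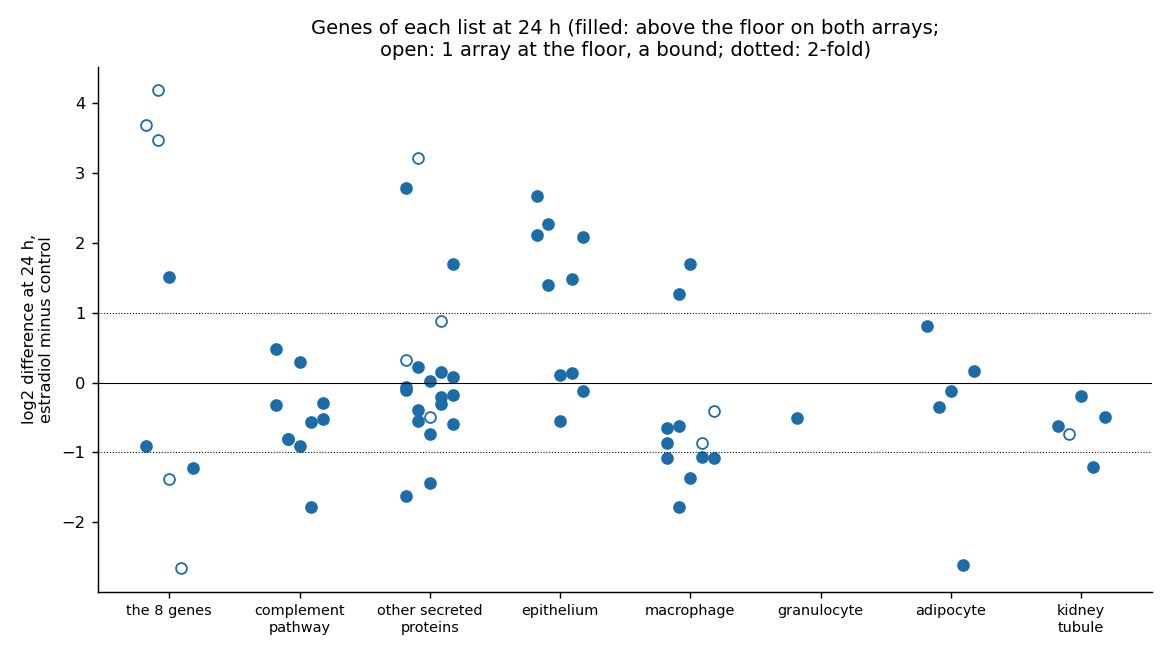
Log2 difference at 24 h, estradiol minus control (y axis), of genes of 8 lists (x axis). Filled points are above the floor on both arrays, open points are bounds with 1 array at the floor, and dotted lines mark 2-fold. Genes at the floor on both 24 h arrays are not drawn. Kap, Cuzd1 and C3 are the 3 highest points at the left, and 1 complement pathway gene, Serping1, lies below the lower line.

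Likeness of pattern was measured over the 4 arrays as the root mean square difference of log2 signals, each gene centred on its mean. The genes most like C3 were Cuzd1 at 0.10, Spon1 at 0.30 and Kap at 0.31. For Kap they were Cuzd1 at 0.21, C3 at 0.31 and Spon1 at 0.61. These values depend on the floor, which sets 3 of the 4 arrays for C3, Kap and Cuzd1. For Clu, above the floor on all 4 arrays, the nearest were App at 0.04, Adk at 0.04 and Wipf3 at 0.05. Wipf3 was at the floor on 2 arrays, with estradiol at 24 h and with the control label at 6 h, so its value too is set in part by the floor. App, the amyloid precursor protein, read 1585 on the 24 h estradiol array and 3566 on the 24 h control array, and 1693 and 2724 with the control and the estradiol label at 6 h.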

How the data were processed

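The deposited values are MAS5 signal intensities, 1 per probe set and array, which the authors made with MAS5 per the submitters' processing notes. Neither its version nor its settings are named in the sources used here. The instrument records hold array lot, wash and scan settings, per the file headers. Of 8799 probe sets 59 controls were left out, and 7006 of the rest had exactly 1 symbol in the platform annotation. Arrays were scaled to a trimmed mean of 500 (2% cut at each end), floored at their 40th percentile and turned to log2. A gene is its brightest probe set by mean signal. Spike-in transcripts were 1.35-fold brighter with estradiol at 24 h, and 1.31-fold brighter on the array labelled control at 6 h, over 9 probe sets. They were 1.75-fold brighter on the 24 h control than on the array labelled control at 6 h. Gapdh had 3′ over 5′ ratios of 1.05 to 1.15 and Actb of 1.23 to 1.39.

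The genes described and the gene lists were chosen with earlier results of these data known. Every gene of the 9 was to be described. Of the lists, counts were to be given, with up to 4 genes past 2-fold per direction, and the 3 genes nearest in pattern to C3, Kap and Clu. Genes of the complement list under the rule are named for their roles. With 1 array per group no test was run, and the number of arrays limits the precision. Alternatives covered scaling, floor, fold rule, probe set choice and the control used. Analyses used Python 3.11.15 with numpy 2.4.6, pandas 2.3.3 and scipy 1.17.1.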

Additional observations from a re-analysis of the deposited data

How the results depend on the processing

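No paired analysis was possible because each group is 1 array and no replicate can be left out. Kap, Cuzd1 and C3 stayed at least 2-fold higher at 24 h under all 11 other settings of scaling, floor, fold rule, probe sets and control, with log2 differences from 2.88 to 5.90, 2.39 to 4.38 and 2.16 to 5.19. Cfd stayed lower under all 10 that keep its probe set, from -4.13 to -1.30. Cd55 kept its call under 7 of 11 and turned to -0.47 without probe sets ending in _x_at or _s_at. Its difference was 0.60 with the floor at the 60th percentile and 0.53 with the mean of its probe sets. Clu kept its call under 8 of 10 and Lcn2 under 9 of 11 at 24 h. Against the mean of both controls Clu was at -0.68, and Lcn2 with the higher floor at -0.13. These counts of settings include the values as deposited, which gave the same differences as the scaled values. They also include the 1.5-fold rule, which cannot remove a 2-fold call. Neither of these settings could change a call, so neither bears on how firm it is.

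The count of the 8 genes higher at 24 h lay between 3 and 4 throughout. With the 3-fold rule 1 was lower at 24 h, as without probe sets ending in _x_at or _s_at, a setting that leaves out Cfd and Clu. Between the controls 2 were higher with the floor at the 20th percentile, and 0 with the 3-fold rule or without those probe sets. At 6 h 1 was higher with the floor at the 20th percentile, and 1 higher and 2 lower with the 1.5-fold rule. The gene higher with the lower floor was Cuzd1, at a log2 difference of 1.07 with the estradiol label, so its lack of a 6 h call depends on the floor. The single gene lower at 6 h, Lcn2, gave a count of 0 with the floor at the 60th percentile, a pseudocount of 50, the 3-fold rule or the mean of both controls. Of the complement list at 24 h, 1 was higher and 3 lower with the floor at the 20th percentile, 4 lower with the 1.5-fold rule and 2 lower against the mean of both controls. At 6 h 2 were lower with the 1.5-fold rule. Shares of all genes called were computed only for the processing described above. Nothing is therefore read from counts of the 8 genes or of the complement list under other settings.

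With the other time's control, chosen after seeing the data because the 24 h control has an incomplete wash record and the 6 h label is in doubt, the 24 h count stayed at 4 higher. Clu then read -0.15, 2 complement genes were lower at 24 h, and 0 of the 8 were lower at 6 h. The cause of these changes was not tested.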

Other observations

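Besides Kap, Cuzd1 and C3, 7 genes were above the floor on the 24 h estradiol array alone and 2-fold above each other array, a set described after its values were seen. Gpx2, the glutathione peroxidase of epithelia, stood at least 4.37-fold above every other array, Agtr2, an angiotensin receptor, at least 3.62-fold and Emc8 at least 3.10-fold. Sdc3, a cell surface proteoglycan, stood at least 2.98-fold above, Mrpl38 at least 2.84-fold, Anapc15 at least 2.81-fold and Gpam, which starts glycerolipid synthesis, at least 2.42-fold.

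On the lower side, 56 genes were 2-fold lower on that array than on each other array. Among these, Sncg, a synuclein, and Cfd were at the floor on it, at least 6.36-fold and at least 4.57-fold below their nearest array.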
